A study of Mus musculus with 54 samples.

Results

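The genes described here are 10 regulators of mitochondrial biogenesis and fuel oxidation, taken by name from the 54356 genes listed in each of the heart and liver tables. They are the coactivators Ppargc1a, Ppargc1b and Perm1, the nuclear receptors Esrra, Esrrg, Ppara, Ppard and Rxra, and the nuclear respiratory factors Nrf1 and Gabpa. RNA was sequenced from hearts and livers of male C57BL/6 mice aged 20 weeks that had eaten a high-fat diet (HFD) with 42% of its energy as fat, 35% as carbohydrate and 23% as protein. In each tissue there were 3 Mrps12+/+ mice, 3 Mrps12ep/ep mice and 3 Mrps12ha/ha mice. MRPS12 is a protein of the small subunit of the mitochondrial ribosome. The ep allele makes mitochondrial translation error-prone and the ha allele makes it hyper-accurate, and both are germline changes carried by every cell. The 3 genotypes share the diet, the sex and the age, so these samples hold no mouse on a normal chow.

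PGC-1α, encoded by Ppargc1a, and its relative PGC-1β, encoded by Ppargc1b, bind no DNA themselves. They are recruited by nuclear receptors and by the nuclear respiratory factors and raise the transcription of genes for oxidative phosphorylation, the citric acid cycle and fatty acid oxidation. In the heart this network keeps up the capacity to burn fatty acids, and in the liver PGC-1α is induced in fasting, when it drives gluconeogenic genes, while PPARα drives fatty acid oxidation and ketogenesis. Perm1 is a muscle-enriched partner of PGC-1 and the estrogen-related receptors (ERRs). RXRα is the obligate partner of the PPARs on DNA.

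The promoter stretches of the members that hold a match to a binding motif of a factor of this network, in Gabpa that of its own product, are shown because the members are known to act on each other's genes. In GENCODE vM21 on GRCm38.p6, Ppara spans chr15:85734983-85802819, Esrrg chr1:187608791-188214885, Gabpa chr16:84834925-84863779 and Perm1 chr4:156215868-156221307 on the plus strand, and Ppargc1a spans chr5:51454250-51567726 and Esrra chr19:6910977-6921813 on the minus strand. RefSeq gave 14 promoter windows for 9 of the 10 genes, each running from 250 bases before a transcription start to 50 bases after it. Both strands were searched for 6 motifs. These were the NRF1 core gcatgcgc, which in its full palindrome matches both strands, the ERR half-site aaggtca, the GABP core ccggaag, the nuclear receptor half-site aggtca, which is contained in the ERR half-site, the MEF2 site ctatttata and the cyclic AMP response element tgacgtca. The bases before the start that carry a match are printed 5′ to 3′ on the strand of the gene, all on GRCm38.p6, with the match named in each line in capitals. The Rxra stretch also holds a nuclear receptor half-site on the opposite strand, 87 bases before the start, which is left in lower case. Stretches clear of annotated exons are given in up to 100 bases, and the match in Gabpa, which lies in an annotated exon, in 30.

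Ppara, NRF1 core on both strands 31 bases before the start, chr15:85735714-85735775, plus strand: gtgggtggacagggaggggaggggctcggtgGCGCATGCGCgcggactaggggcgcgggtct
Perm1, ERR half-site on the opposite strand 202 bases before the start, chr4:156215678-156215777, plus strand: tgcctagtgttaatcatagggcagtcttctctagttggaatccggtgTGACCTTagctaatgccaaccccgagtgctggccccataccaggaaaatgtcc
Rxra, ERR half-site 49 bases before the start, chr2:27709192-27709291, plus strand: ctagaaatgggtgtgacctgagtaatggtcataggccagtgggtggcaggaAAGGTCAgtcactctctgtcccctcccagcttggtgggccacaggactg
Esrrg, MEF2 site 22 bases before the start, chr1:187608906-187609005, plus strand: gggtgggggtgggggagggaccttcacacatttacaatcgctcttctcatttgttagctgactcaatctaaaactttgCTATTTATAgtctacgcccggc
Esrra, NRF1 core 34 bases before the start, chr19:6921814-6921913, minus strand: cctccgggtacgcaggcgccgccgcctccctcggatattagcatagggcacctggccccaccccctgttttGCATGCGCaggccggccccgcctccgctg
Gabpa, GABP core on the opposite strand 93 bases before the start, chr16:84835019-84835048, plus strand: ggagggtaagtgCTTCCGGgtccctcagct

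Of all 32851 promoter windows, 2.71% held the NRF1 core, 4.72% the ERR half-site, 8.86% the GABP core, 16.3% the nuclear receptor half-site, 0.43% the MEF2 site and 1.79% the cyclic AMP response element. The windows of Ppargc1a, Ppard and Nrf1 held none of the 6. Rxra and Esrrg have other windows without a match. The Gabpa window also overlaps exons of Atp5j, a subunit of ATP synthase, on the opposite strand. The counting used strand, so that reads of the pair can be told apart. These matches are letters in a window and were not measured as bound sites.

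The libraries differed in depth. A mouse gave 11202866 to 51480272 reads on genes in the heart and 21238038 to 81518277 in the liver, after the 3 technical libraries of each mouse had been pooled. The shallowest heart was that of Mrps12ha/ha mouse 2, in which 1 read is worth 3.02 normalized counts. The summed level of 5 cardiomyocyte markers was 1783139.1 to 3148252.8 normalized counts in the hearts and that of 5 hepatocyte markers 3843122.2 to 6067562.3 in the livers, so that both tissues matched their labels. Some samples held RNA of other cells. The 5 atrial markers summed to 8107.5, 162740.4 and 118579.8 in the Mrps12+/+ hearts, to 1682.1, 377880.7 and 92951.1 in the Mrps12ep/ep hearts and to 5214.8, 4551.3 and 10279.3 in the Mrps12ha/ha hearts. All 3 Mrps12ha/ha hearts were thus low in atrial transcripts, while the other genotypes held high and low hearts. The 3 brown adipocyte markers summed to 12171.7 in Mrps12+/+ heart 3 and to 1087.9 to 1736.9 in the other hearts. The 3 white adipocyte markers summed to 1533.8 in Mrps12+/+ heart 3 and to 0.0 to 276.6 in the others. The part of adipose RNA in the values of that heart was not tested. The 5 skeletal muscle markers summed to 12668.9 and 14694.3 in Mrps12+/+ livers 1 and 2, and to 3.4 to 75.2 in the other livers. The mutated gene was transcribed in every sample, with 1027.6 to 1396.9 normalized counts of Mrps12 in the hearts and 1507.7 to 1914.5 in the livers, which does not check the point mutations.

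In the Mrps12+/+ hearts the order of the levels was led by Perm1, at 4701 ± 434 normalized counts per kb of exon (SD, n = 3). Ppargc1a at 1096 ± 186 and Esrra at 1065 ± 56.5 followed, and their mice overlapped. Below them came Rxra at 569.9 ± 53.4, Gabpa at 356.7 ± 13.1, Esrrg at 252.6 ± 17.5, Ppard at 202.7 ± 5.9, Ppara at 148.7 ± 22.6, Ppargc1b at 81.4 ± 22.5 and Nrf1 at 47.5 ± 3.3. Neighbours in this part of the order did not overlap among the 3 mice. The coactivator pair was unequal, since PGC-1α transcripts stood far above those of PGC-1β, and of the estrogen-related receptors Esrra stood above Esrrg.

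The Mrps12+/+ livers had another order. Rxra led at 4412 ± 565 normalized counts per kb of exon (SD, n = 3). Ppara was second at 407.1 ± 87.1, then Esrra at 282.3 ± 23.9 and Gabpa at 272.7 ± 22.4, which overlapped. Ppargc1a at 127.6 ± 42.7 and Ppard at 56.0 ± 8.6 came next and overlapped with neither neighbour. The lowest were Nrf1 at 41.5 ± 1.6, Perm1 at 41.1 ± 39.3, Esrrg at 28.6 ± 13.2 and Ppargc1b at 23.4 ± 16.0, each overlapping the next. The tables of the tissues were normalized separately, so the difference between them was not tested and levels can be set side by side only roughly. Within each table, Perm1 was the first of the 10 in the heart and the eighth in the liver, and Ppara was the eighth in the heart and the second in the liver. The liver rank of Perm1 rests on Mrps12+/+ mice 1 and 2, at 172.1 and 307.3 normalized counts, whose livers held skeletal muscle markers. Mouse 3 had 1.6.

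**Figure D1:**
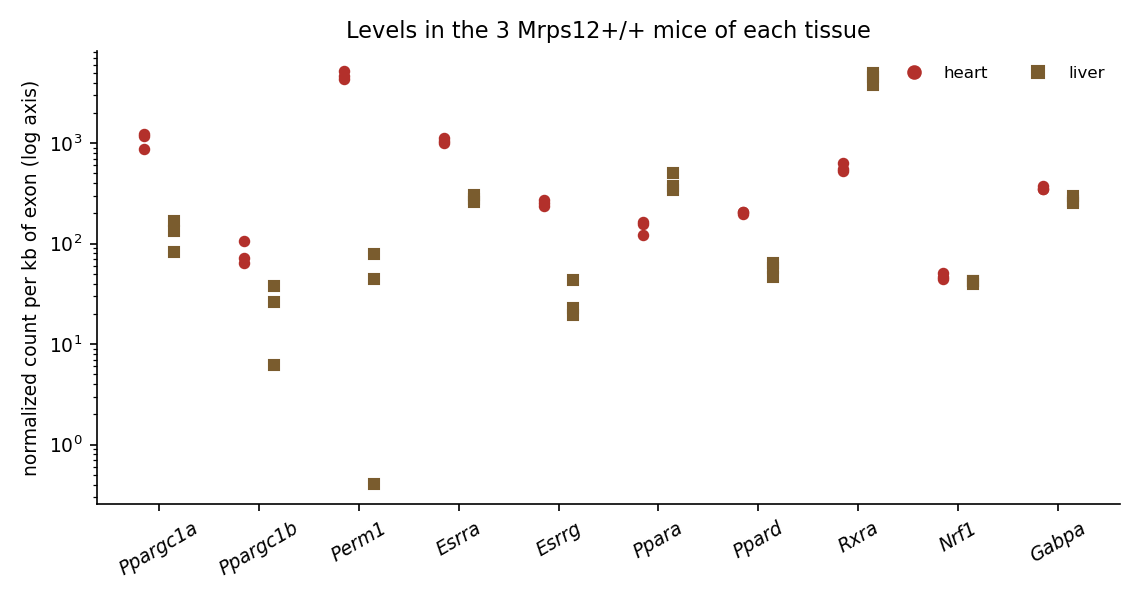
Level of each member in the 3 Mrps12+/+ mice of each tissue, in normalized counts per kb of merged exon on a log axis; circles are hearts and squares are livers. Perm1 leads the hearts at 4701 per kb on average and Rxra leads the livers at 4412, and the 3 liver values of Perm1 are spread from 0.4 to 78.8.

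The first question was whether hyper-accurate translation goes with altered levels of these regulators in the heart. Across the 3 Mrps12ha/ha hearts, 8 of the 10 members had a lower estimate than in Mrps12+/+ and 2 a higher one, with a median log2 fold change of -0.33 beside -0.02 over all tested genes. None of the 10 had an adjusted p under 0.05 (limma on log2 of the normalized count plus 1, Benjamini-Hochberg over 16057 genes), where 0.0311% of all tested genes did, and 2 had an unadjusted p under 0.05, where 19.7% of all genes did. With limma-voom on the recovered reads 0 of the 10 passed as well, in this and in each of the other 5 comparisons. The 2 were Esrrg and Gabpa. The members separated into a set in which mice 1 and 3 stood low and mouse 2 did not, and a set that hardly differed. The Mrps12+/+ mice serve as controls for both mutants, which ties the comparisons to one another. Nothing in the labels states that the mice came from separate litters, and the p-values measure the spread between these mice.

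Of the coactivators, Ppargc1a had 5810.9, 7838.7 and 8023.4 normalized counts in the Mrps12+/+ hearts, 7423.6, 3949.1 and 6614.9 in the Mrps12ep/ep hearts and 3241.6, 10247.2 and 4031.8 in the Mrps12ha/ha hearts. Mrps12ha/ha mice 1 and 3 lay below every Mrps12+/+ mouse and mouse 2 above them all. The log2 fold change of Mrps12ha/ha over Mrps12+/+ was -0.48 ± 0.40 (SE; adjusted p = 0.487). In Perm1 too Mrps12ha/ha mice 1 and 3 lay below every Mrps12+/+ mouse and mouse 2 above them all, with 20156.4, 16804.0 and 18051.1 in Mrps12+/+, 19929.1, 11182.2 and 18225.5 in Mrps12ep/ep and 11086.8, 21977.2 and 12549.0 in Mrps12ha/ha hearts. Mrps12ep/ep mouse 2 was the lowest of its group in 8 of the 10 members, all but Nrf1 and Gabpa, and it was the heart with the highest atrial marker sum, 377880.7. The part of atrial RNA in its values was not tested. Ppargc1b was the lowest coactivator and ranged from 258.7 to 427.1 in Mrps12+/+, from 237.8 to 305.1 in Mrps12ep/ep and from 190.9 to 392.6 in Mrps12ha/ha hearts, with overlap of all groups. Here too Mrps12ha/ha mice 1 and 3, at 215.4 and 190.9, were the lowest of the 9 hearts, and mouse 2 had 392.6.

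The estrogen-related receptors behaved unlike each other. ERRγ, encoded by Esrrg on chromosome 1, is a family member expressed in tissues of high oxidative capacity. It had 1568.1, 1459.6 and 1677.3 normalized counts in Mrps12+/+, 1466.1, 1212.0 and 1791.8 in Mrps12ep/ep and 528.3, 1531.2 and 715.8 in Mrps12ha/ha hearts. Mice 1 and 3 of Mrps12ha/ha were below all 6 hearts of the other genotypes and mouse 2 was within their range. The log2 fold change over Mrps12+/+ was -0.91 ± 0.33 (SE; adjusted p = 0.219). ERRα, encoded by Esrra, had 4437.4 to 4931.7 in Mrps12+/+, 3981.6 to 4773.8 in Mrps12ep/ep and 4364.4 to 5043.6 in Mrps12ha/ha hearts, and its log2 fold change in Mrps12ha/ha was 0.02 ± 0.11.

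Ppara, the receptor through which fatty acids induce their own oxidation, varied most in the heart, with a highest mouse 5.42 times the lowest. Its values were 471.9, 603.9 and 635.2 normalized counts in Mrps12+/+, 600.3, 339.2 and 758.3 in Mrps12ep/ep and 139.9, 724.8 and 249.0 in Mrps12ha/ha hearts. Again mice 1 and 3 of Mrps12ha/ha were the lowest of the 9, and the groups overlapped through mouse 2. The log2 fold change was -0.94 ± 0.52 (SE; adjusted p = 0.316), a level of 0.52 of that in Mrps12+/+ on the fitted scale. Ppard, the isotype expressed most broadly, was steadier, at 1475.2 to 1562.1 in Mrps12+/+, 1437.0 to 1738.5 in Mrps12ep/ep and 1347.0 to 1445.4 in Mrps12ha/ha hearts. The 3 Mrps12ha/ha hearts lay below the 3 Mrps12+/+ hearts for Ppard, by -0.13 ± 0.10 on the log2 scale (adjusted p = 0.482; exact permutation test, two-sided p = 0.1, the smallest that 3 mice against 3 allow). Rxra, the common partner, spanned 2870.7 to 3436.9 in Mrps12+/+, 2522.6 to 3204.6 in Mrps12ep/ep and 2393.0 to 3337.2 in Mrps12ha/ha hearts. Here too Mrps12ha/ha mice 1 and 3, at 2393.0 and 2747.6, lay below every Mrps12+/+ heart, and mouse 2 had 3337.2. The log2 fold change was -0.15 ± 0.15 (SE; adjusted p = 0.568).

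Gabpa, which encodes the DNA-binding subunit of the GA-binding protein, had 1967.7, 2006.4 and 2111.2 normalized counts in Mrps12+/+, 1883.2, 1958.9 and 2355.7 in Mrps12ep/ep and 1483.6, 2002.3 and 1349.2 in Mrps12ha/ha hearts. Mice 1 and 3 were below all other hearts. The log2 fold change was -0.35 ± 0.16 (SE; adjusted p = 0.252). Nrf1, the other respiratory factor, pointed the other way, with 462.0 to 527.6 in Mrps12+/+ and 491.5 to 641.1 in Mrps12ha/ha hearts (log2 fold change 0.18 ± 0.13; adjusted p = 0.436). A lower share of the cells that express a gene and less RNA per cell cannot be told apart in these bulk samples.

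**Figure D2:**
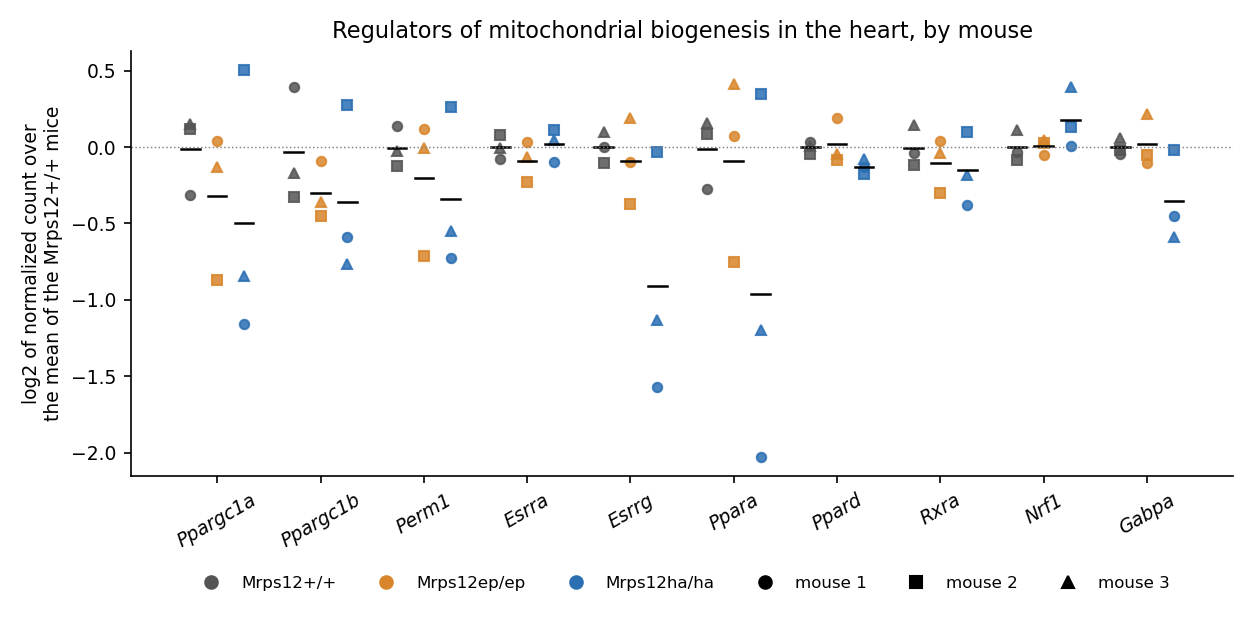
Each member in each heart, as the log2 of the normalized count over the mean of the 3 Mrps12+/+ mice; colours are genotypes, symbols are mice 1 to 3 and the short bars are the means of the 3 plotted values. Mrps12ha/ha mice 1 and 3 stand low in Ppargc1a, Ppargc1b, Perm1, Esrrg, Ppara and Gabpa, and less so in Rxra. In these genes mouse 2 lies near or above the Mrps12+/+ mice. Esrra, Ppard and Nrf1 keep within a narrow band.

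Leaving out any 1 Mrps12ha/ha heart moved these values. Without mouse 1 the log2 fold change over Mrps12+/+ was -0.41 for Ppara and -0.58 for Esrrg. Without mouse 3 it was -0.83 and -0.8. In each of these fits 0 of the 10 members and 4 of all genes were called. Leaving out mouse 2 kept mice 1 and 3. Then 4 of the 10 members had an adjusted p under 0.05 against Mrps12+/+, where 26.9% of all genes did. Against Mrps12ep/ep 3 members did, where 23.2% of all genes did. Against Mrps12+/+ the 4 were Ppara (log2 fold change -1.59 ± 0.36, adjusted p = 0.0149), Esrrg (-1.35 ± 0.18, adjusted p = 0.0035), Ppargc1a (-0.98 ± 0.27, adjusted p = 0.0298) and Gabpa (-0.52 ± 0.11, adjusted p = 0.0133). Against Mrps12ep/ep Ppara, Esrrg and Gabpa passed and Ppargc1a did not (adjusted p = 0.106). Array weights, which let limma count each heart by its scatter, gave mouse 2 a weight of 0.167 and called 5 members in each comparison, Perm1 being the fifth, where 34.7% of all genes were called against Mrps12+/+ and 39.3% against Mrps12ep/ep. Against Mrps12+/+ without this mouse, Ppargc1b (-0.64 ± 0.23, adjusted p = 0.0705) and Perm1 (-0.63 ± 0.23, adjusted p = 0.0776) did not pass, and the adjusted p of Esrra, Ppard, Rxra and Nrf1 was 0.156 or more. This heart is the shallowest of the 9. Its 3 erythroid markers summed to 127553.7 normalized counts, against 309234.3 and 940224.3 in Mrps12ha/ha mice 1 and 3 and 58974.1 to 151657.6 in the hearts of the other genotypes. The atrial markers were low in all 3, and so was the sum of 3 mesothelial markers, at 305.7 to 504.4 against 583.4 to 2249.4 in the other genotypes. Of the mesothelial markers only Upk3b kept apart by itself, while Msln and Wt1 overlapped the other genotypes. The 5 cardiomyocyte markers summed to 3148252.8 and 2769244.6 in Mrps12ha/ha mice 1 and 3, above the 2346407.3 of mouse 2 and all other hearts, and the 3 endothelial markers to 38359.3 and 31677.5, against 20876.7 to 30273.1 in the other 7. Within the cardiomyocyte markers only Myh6 and Myl2 were higher in both of these hearts than in the other 7. Myh6 made up most of the sum, at 2130353.7 and 1846144.6 against 1256397.5 or less. Tnnt2 was mixed, at 382720.4 and 332354.7 against 272554.6 to 381317.0. Actc1 went the other way, at 238389.4 and 204154.5 against 250190.9 or more. So did Ryr2, the calcium release channel, at 16285.1 and 19112.6 against 42376.8 or more. The part of depth and of these cells in the values was not tested.

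**Figure D3:**
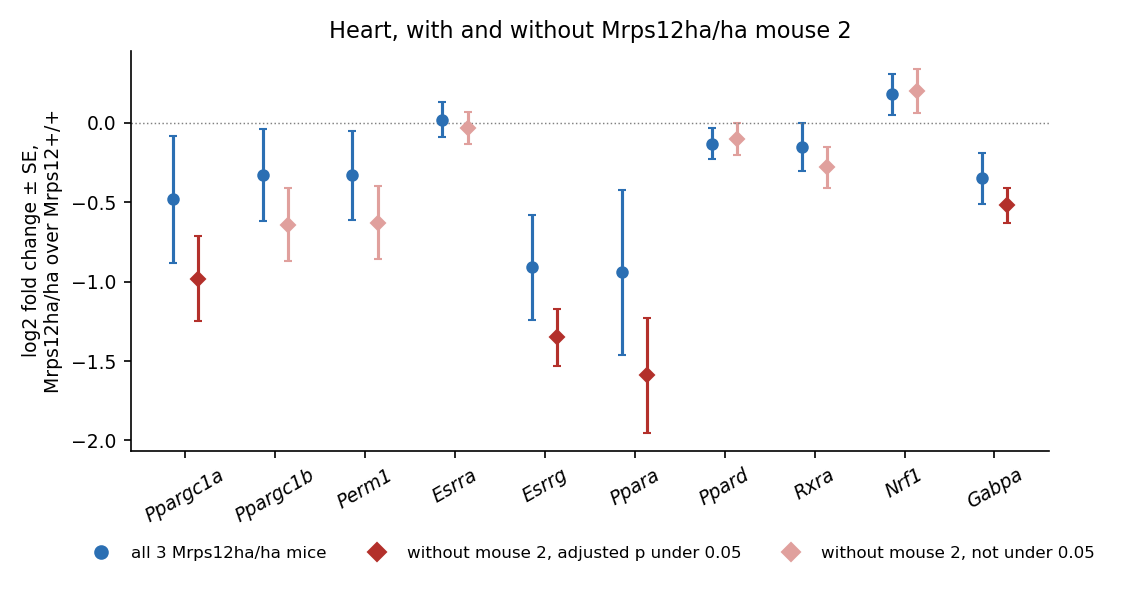
Log2 fold change of each member in Mrps12ha/ha over Mrps12+/+ hearts with its SE, from all 3 Mrps12ha/ha mice (circles) and without mouse 2 (diamonds, dark where the adjusted p is under 0.05). Ppara moves from -0.94 to -1.59 and Esrrg from -0.91 to -1.35, while Esrra stays between 0.02 and -0.03.

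In the error-prone hearts mouse 2 was low in most members. With it the median log2 fold change of the members against Mrps12+/+ was -0.09, and without it 0.03. Of the 10 members, 0 had an adjusted p under 0.05 against Mrps12+/+ and 0 had an unadjusted p under 0.05, beside 0% and 1.69% of all genes. The estimates ran from -0.30 ± 0.40 for Ppargc1a to 0.02 ± 0.10 for Ppard on the log2 scale, and all members overlapped between the genotypes. In the direct comparison of Mrps12ha/ha with Mrps12ep/ep hearts 0 of the 10 had an adjusted p under 0.05, beside 0.0249% of all genes, and 2 had an unadjusted p under 0.05, beside 17.9%. They were Esrrg at -0.82 ± 0.33 (adjusted p = 0.26) and Gabpa at -0.37 ± 0.16 (adjusted p = 0.268).

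The genes that these regulators are known to drive were read from lists. These lists, and those of coregulators, receptors and clock genes below, were chosen with earlier results of these data known. None of the genes of any list had an adjusted p under 0.05 in the 3 heart comparisons with all mice. Of 12 targets of the ERRs and PGC-1, 9 had lower estimates in Mrps12ha/ha than in Mrps12+/+ hearts (median log2 fold change -0.32), and 1 had an unadjusted p under 0.05, beside 19.7% of all genes. Without mouse 2 5 were lower and 0 higher with an adjusted p under 0.05, beside 26.9% of all genes. Idh3a, a subunit of isocitrate dehydrogenase in the citric acid cycle, had 22696.7, 24219.6 and 24904.8 normalized counts in Mrps12+/+ and 14602.6, 24499.0 and 12304.2 in Mrps12ha/ha hearts. Mfn2, which fuses outer mitochondrial membranes, had 31118.5, 31249.4 and 31232.1 against 15633.5, 34151.2 and 20748.8. Acadm, the medium-chain acyl-CoA dehydrogenase, had 55238.7, 53015.3 and 64101.2 against 27795.3, 62503.9 and 24689.3. In all 3 genes Mrps12ha/ha mice 1 and 3 lay below the Mrps12+/+ mice and mouse 2 did not.

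Of 27 tested PPAR targets, 24 had lower estimates in Mrps12ha/ha than in Mrps12+/+ hearts (median -0.31). Only 2 had an unadjusted p under 0.05, beside 19.7% of all genes, and both were higher. Angptl4, a secreted inhibitor of lipoprotein lipase, had 533.0, 305.4 and 635.2 normalized counts in Mrps12+/+, 541.9, 494.7 and 460.4 in Mrps12ep/ep and 1194.6, 1235.2 and 2094.7 in Mrps12ha/ha hearts (log2 fold change 1.63 ± 0.29, adjusted p = 0.144). All 3 Mrps12ha/ha hearts lay above the other 6, mouse 2 among them. Ucp3, a mitochondrial carrier induced by fatty acids, had 2727.2, 2602.5 and 1916.9 in Mrps12+/+, 1557.2, 1471.8 and 1834.4 in Mrps12ep/ep and 3510.3, 2923.5 and 5499.3 in Mrps12ha/ha hearts, which again lay above the other 6. Without mouse 2 both were higher with an adjusted p under 0.05 (0.00778 for Angptl4 and 0.0209 for Ucp3). At that threshold 3 other PPAR targets were lower, beside 26.9% of all genes called in both directions together. In the comparison with Mrps12ep/ep the list turned its sign, with 18 of 27 estimates higher and a median of 0.12. Without mouse 2 that turn was not kept, with 12 estimates higher, 15 lower and a median of -0.01.

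In the Mrps12ep/ep hearts 26 of the 27 PPAR targets had lower estimates than in Mrps12+/+ (median -0.27), and 6 had an unadjusted p under 0.05, beside 1.69% of all genes. Of the 3 with the smallest p, Cyp4a14 and Cyp4a10 are fatty acid hydroxylases that are abundant in liver. Cyp4a14 had 224.8, 29.4 and 41.5 normalized counts in Mrps12+/+, 21.8, 1.2 and 4.5 in Mrps12ep/ep and 14.7, 102.7 and 26.3 in Mrps12ha/ha hearts. The 5 hepatocyte markers summed in the same hearts to 14110.4, 3830.2 and 5843.1, to 11577.3, 113.7 and 805.6 and to 2159.2, 14037.4 and 3873.4. In each group the heart with the highest sum was also the one with the most Cyp4a14, and the part of hepatocyte RNA in the difference was not tested. The third was Acot1, an acyl-CoA thioesterase, with 693.2, 1110.1 and 1244.0 in Mrps12+/+ and 777.6, 386.8 and 621.2 in Mrps12ep/ep hearts, which overlapped. Mrps12+/+ heart 3, with a brown adipocyte marker sum of 12171.7, was the highest of its group in Acot1 but not in Cyp4a14 or Cyp4a10. The part of adipose RNA in the estimates of this list was not tested either.

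Of 10 targets of NRF1 and GABP, 5 had higher and 5 lower estimates in Mrps12ha/ha than in Mrps12+/+ hearts. Cox5b, a nuclear-encoded subunit of cytochrome oxidase, had 24584.3, 25867.8 and 25516.1 normalized counts in Mrps12+/+ and 40351.0, 28404.0 and 39479.6 in Mrps12ha/ha hearts. Polrmt, the mitochondrial RNA polymerase, had 1352.8, 1286.6 and 1101.8 against 2072.7, 1343.9 and 1771.8. Tfb1m, which methylates mitochondrial ribosomal RNA, had 334.1, 260.4 and 262.9 against 167.5, 253.7 and 161.8. Cox5b and Tfb1m did not overlap between these genotypes and Polrmt did, and the list held genes in both directions also without mouse 2, with 2 higher and 4 lower at an adjusted p under 0.05, beside 26.9% of all genes.

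Among 17 coregulators and kinases acting on PGC-1, 3 were higher and 5 lower at an unadjusted p under 0.05 in Mrps12ha/ha against Mrps12+/+ hearts, beside 19.7% of all genes in both directions together. Mef2c, a factor of muscle genes that acts on the Ppargc1a promoter, had 2094.3, 2423.4 and 1789.2 normalized counts in Mrps12+/+ and 1500.2, 1760.7 and 1226.8 in Mrps12ha/ha hearts. Pprc1, the third PGC-1 family gene, had 1147.0, 1016.6 and 1016.9 against 705.0, 730.9 and 988.2. Ncor1, a corepressor, had 4881.7, 4644.4 and 5009.8 against 2989.4, 4587.5 and 3223.3. In all 3 genes the 3 Mrps12ha/ha hearts lay below the Mrps12+/+ hearts, mouse 2 included. Of 11 related nuclear receptors, 1 was higher (Rxrb) and 1 lower (Thrb) at an unadjusted p under 0.05, and Esrrb, the third ERR gene, had 1302.0, 1067.7 and 1395.5 against 607.4, 1452.7 and 704.7.

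Of 12 clock genes, 6 were higher and 4 lower at an unadjusted p under 0.05 in Mrps12ha/ha against Mrps12+/+ hearts, beside 19.7% of all genes. The list was chosen with earlier results of these data known, so these counts are no independent test of it. Nr1d1, the repressor REV-ERBα, had 4551.1, 4936.0 and 3897.9 normalized counts in Mrps12+/+, 6308.2, 5115.3 and 6241.7 in Mrps12ep/ep and 8763.8, 7652.9 and 8358.8 in Mrps12ha/ha hearts (log2 fold change 0.89 ± 0.13 over Mrps12+/+, adjusted p = 0.0935). The 3 genotypes did not overlap in Nr1d1. Dbp, a clock output factor, had 1731.7, 2192.4 and 1735.1 in Mrps12+/+ and 5470.7, 3941.2 and 2945.3 in Mrps12ha/ha hearts. Against Mrps12ep/ep hearts 7 clock genes were higher and 3 lower at an unadjusted p under 0.05 in Mrps12ha/ha, beside 17.9% of all genes. Arntl, a core activator of the clock, had 479.5, 752.1 and 515.8 in Mrps12ep/ep and 263.2, 238.6 and 354.1 in Mrps12ha/ha hearts. Of the 5 fasting targets of PGC-1α known from liver, 4 were tested in the heart and 0 had an unadjusted p under 0.05 in any of the 3 comparisons. The time of day at which tissues were taken is not given in the sources used here, and its part in the levels was not tested.

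In the liver the same question gave another pattern. Mrps12+/+ mouse 3 stood apart among the livers. It had the lowest hepatocyte marker sum, 3843122.2 normalized counts against 4852098.4 or more in the other 8, the lowest sum of the 3 endothelial markers, 1676.2 against 3331.2 or more, and the lowest array weight, 0.43. The part of this in the members' values was not tested. Of the 10 members, 0 had an adjusted p under 0.05 in Mrps12ha/ha against Mrps12+/+, beside 0.00653% of 15314 tested genes, and 2 had an unadjusted p under 0.05, beside 14.1%. In Mrps12ep/ep against Mrps12+/+ the counts were 0 and 2, beside 0.00653% and 9.74% of all genes. In Mrps12ha/ha against Mrps12ep/ep they were again 0 and 2, beside 0.00653% and 8.62%. The median log2 fold change of the members was 0.06, 0.02 and 0.17 in these comparisons, and 6, 5 and 6 of the 10 had higher estimates. Without Mrps12+/+ mouse 3 the median against Mrps12+/+ was 0.15 in Mrps12ha/ha and -0.02 in Mrps12ep/ep.

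The liver coactivators differed in direction. Ppargc1b, which in liver is known for coactivating lipogenic and lipoprotein genes, had 105.6, 150.4 and 24.5 normalized counts in Mrps12+/+, 151.3, 217.6 and 443.9 in Mrps12ep/ep and 376.0, 556.9 and 321.3 in Mrps12ha/ha livers. All 6 mutant livers lay above the 3 Mrps12+/+ livers, though Mrps12ep/ep mouse 1, at 151.3, was next to Mrps12+/+ mouse 2, at 150.4. The log2 fold change was 2.45 ± 0.63 in Mrps12ha/ha (adjusted p = 0.158, between 0.0799 and 0.434 over the alternatives) and 1.72 ± 0.63 in Mrps12ep/ep (adjusted p = 0.459). The lowest liver, Mrps12+/+ mouse 3, rests on 30 reads, and without it the fold changes were 1.68 ± 0.43 and 0.95 ± 0.43. The exact permutation test gave a two-sided p = 0.1 for each, the smallest that 3 mice against 3 allow.

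Ppargc1a had 1097.0, 887.1 and 539.7 normalized counts in Mrps12+/+, 1453.4, 696.0 and 916.6 in Mrps12ep/ep and 540.3, 727.6 and 493.9 in Mrps12ha/ha livers. The Mrps12ha/ha livers overlapped both other genotypes. The log2 fold change of Mrps12ha/ha was -0.48 ± 0.32 over Mrps12+/+ (adjusted p = 0.526) and -0.75 ± 0.32 over Mrps12ep/ep (adjusted p = 0.568). Within Mrps12+/+, mouse 3 was the lowest of its group in both Ppargc1a and Ppargc1b.

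Of the receptors, Esrrg stood out by its low level in the error-prone livers. It had 121.0, 140.7 and 271.5 normalized counts in Mrps12+/+, 78.4, 83.1 and 104.3 in Mrps12ep/ep and 166.6, 193.8 and 196.5 in Mrps12ha/ha livers. The 3 Mrps12ep/ep livers lay below the other 6, by -0.91 ± 0.29 against Mrps12+/+ (adjusted p = 0.439) and with Mrps12ha/ha 1.07 ± 0.29 above them (adjusted p = 0.417) on the log2 scale. Esrra had 1222.3, 1350.4 and 1142.2 in Mrps12+/+, 1208.8, 1388.4 and 1369.4 in Mrps12ep/ep and 1485.1, 1406.7 and 1641.7 in Mrps12ha/ha livers. The 3 Mrps12ha/ha livers were the highest of the 9, at a log2 fold change of 0.29 ± 0.11 over Mrps12+/+ (adjusted p = 0.283).

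Ppara, which stands high in liver, ranged from 1319.5 to 1942.8 in Mrps12+/+, from 934.5 to 1641.4 in Mrps12ep/ep and from 1451.5 to 2025.8 in Mrps12ha/ha livers, and all genotypes overlapped. Rxra spanned 20778.3 to 26878.6 in Mrps12+/+, 21564.6 to 22465.5 in Mrps12ep/ep and 23579.0 to 25309.0 in Mrps12ha/ha livers. Ppard spanned 351.8 to 479.9, 426.5 to 566.0 and 444.3 to 520.9. Neither differed between a mutant and Mrps12+/+ by more than 0.23 on the log2 scale. Nrf1 had 440.1, 431.8 and 407.6 in Mrps12+/+, 435.9, 500.1 and 355.1 in Mrps12ep/ep and 323.7, 357.0 and 368.1 in Mrps12ha/ha livers. The Mrps12ha/ha livers were below the Mrps12+/+ livers, with a log2 fold change of -0.29 ± 0.15 (adjusted p = 0.41), while in the hearts the estimate for Nrf1 was above 0. Gabpa ranged from 1293.7 to 1948.7 over the 9 livers, with both extremes in Mrps12ep/ep.

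**Figure D4:**
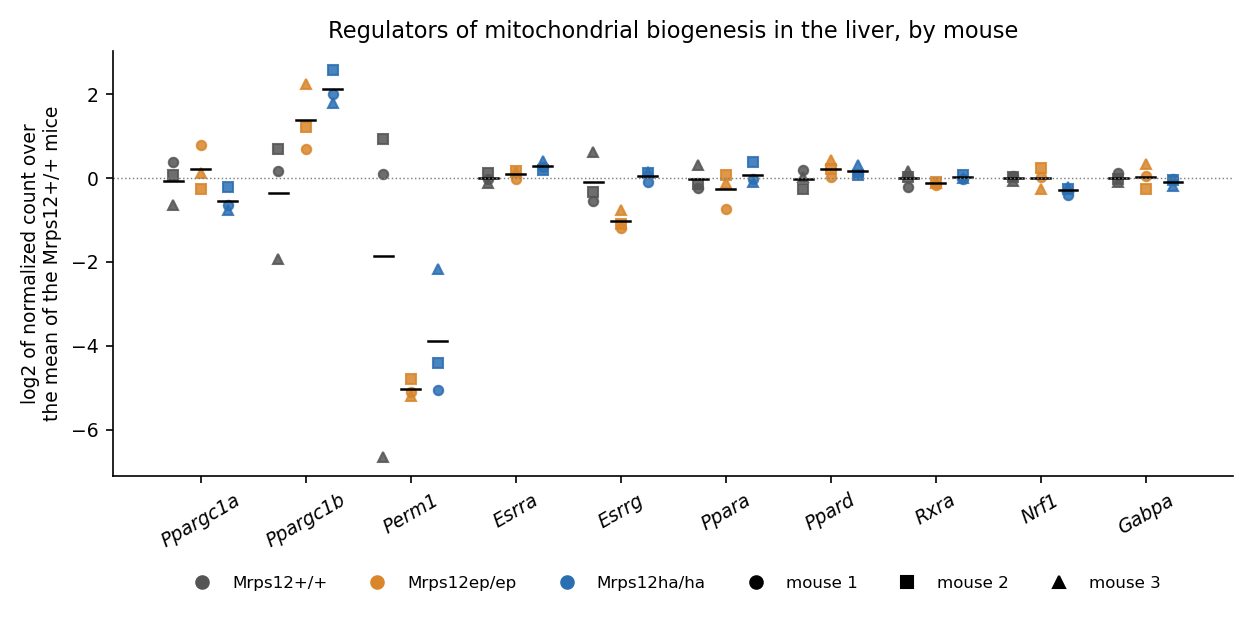
Each member in each liver, as the log2 of the normalized count over the mean of the 3 Mrps12+/+ mice; colours are genotypes, symbols are mice 1 to 3 and the short bars are the means of the 3 plotted values. Ppargc1b lies higher in all 6 mutant livers, Esrrg lies lower in the 3 Mrps12ep/ep livers, and Perm1 is spread over several log2 units with 2 high Mrps12+/+ mice.

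Perm1 in the liver was read from few molecules in most mice. It had 172.1, 307.3 and 1.6 normalized counts in Mrps12+/+, 4.7, 5.8 and 4.4 in Mrps12ep/ep and 4.8, 7.5 and 35.4 in Mrps12ha/ha livers. The high livers were Mrps12+/+ mice 1 and 2 and, at a lower level, Mrps12ha/ha mouse 3. In these 3 livers the 5 skeletal muscle and 5 cardiomyocyte markers together summed to 12883.7, 15068.7 and 6880.9 normalized counts, against 38.2 to 403.9 in the other 6, which held 1.6 to 7.5 of Perm1. The marker sum of the former 2 was of skeletal muscle genes such as Myh4 and Myh1, and that of Mrps12ha/ha mouse 3 of cardiomyocyte genes. Against Mrps12+/+ the log2 fold change was -3.12 ± 1.56 in Mrps12ep/ep (adjusted p = 0.542). Without Mrps12+/+ mouse 3 it was -5.28 ± 0.75 (adjusted p = 0.0244), the 1 member called in that fit, where 0.47% of all genes were called, and over all mice left out in turn it ran from -5.28 to -1.84. The part of muscle RNA in this call was not tested.

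**Figure D5:**
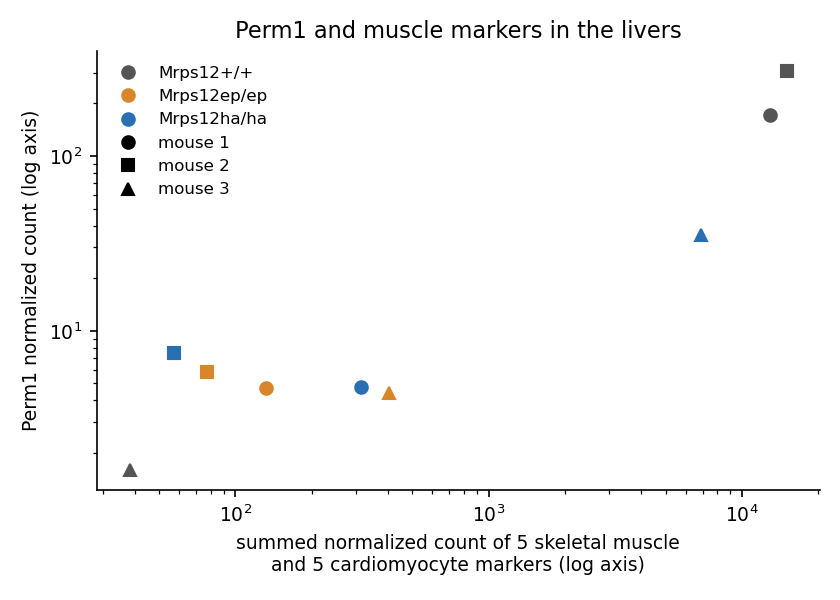
Perm1 in the 9 livers against the summed normalized count of 5 skeletal muscle and 5 cardiomyocyte markers, both on log axes; colours are genotypes and symbols are mice. The 3 livers with 35.4 to 307.3 normalized counts of Perm1 are those with marker sums of 6880.9 to 15068.7, and the other 6 lie at 7.5 or less.

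The target lists of the liver held no gene with an adjusted p under 0.05 in the 3 comparisons. The gluconeogenic and other fasting targets of PGC-1α were lower in estimate in 4 of 5 genes in Mrps12ha/ha livers, against Mrps12+/+ (median -0.92) and against Mrps12ep/ep (median -0.86). Pck1, the rate-limiting enzyme of gluconeogenesis, had 205980.4, 176440.7 and 153521.0 normalized counts in Mrps12+/+, 217010.4, 231280.6 and 215844.5 in Mrps12ep/ep and 148649.9, 116392.4 and 103772.5 in Mrps12ha/ha livers. G6pc, glucose-6-phosphatase, had 26599.2, 17271.4 and 5627.0, then 25493.6, 23327.0 and 14244.3, and then 8906.1, 4324.5 and 6789.4. Igfbp1, an insulin-repressed secreted protein, had 12191.7, 4850.1 and 22517.8, then 12972.6, 7485.6 and 6349.8, and then 2520.5, 2132.2 and 3730.6. All 3 genes were lower in each Mrps12ha/ha liver than in each Mrps12ep/ep liver, and Pck1 and Igfbp1 also than in each Mrps12+/+ liver. The log2 fold changes over Mrps12+/+ were -0.55 ± 0.20 for Pck1 (adjusted p = 0.279) and -2.02 ± 0.50 for Igfbp1 (adjusted p = 0.15).

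PPAR targets had lower estimates in 26 of 28 genes in Mrps12ep/ep than in Mrps12+/+ livers (median -0.40, 5 lower at an unadjusted p under 0.05 beside 9.74% of all genes), and higher estimates in 27 of 28 in Mrps12ha/ha than in Mrps12ep/ep livers (median 0.33, 2 at an unadjusted p under 0.05 beside 8.62%). Both comparisons use the same Mrps12ep/ep mice. Pdk4, the kinase that shuts pyruvate dehydrogenase and a target of both the PPARs and the ERRs, had 943.8, 1919.7 and 2307.2 normalized counts in Mrps12+/+, 372.4, 821.8 and 459.4 in Mrps12ep/ep and 833.0, 521.5 and 481.4 in Mrps12ha/ha livers. All 6 mutant livers were below the Mrps12+/+ livers. Cpt1b, the muscle form of the carnitine palmitoyltransferase, had 479.2, 706.7 and 566.6, then 181.9, 338.3 and 253.0, and then 549.8, 183.6 and 283.8. Cyp4a10 had 7761.0, 25163.6 and 19979.4 in Mrps12ep/ep and 55923.7, 29830.1 and 40256.3 in Mrps12ha/ha livers, which did not overlap.

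Ucp3, another PPAR target, had 34.3, 74.4 and 5.7 normalized counts in Mrps12+/+ livers, was at 0 in all 3 Mrps12ep/ep livers and had 4.8, 3.4 and 10.4 in Mrps12ha/ha livers. Slc25a4, the ADP/ATP carrier of heart and muscle and an ERR target, had 1418.1, 2008.6 and 268.2, then 292.4, 226.9 and 281.9, and then 302.3, 187.7 and 712.2. In both genes the highest livers were Mrps12+/+ mice 1 and 2, followed by Mrps12ha/ha mouse 3, as for Perm1 and the muscle markers. The part of muscle RNA in these values was not tested either.

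Of the remaining liver lists, the 12 targets of the ERRs and PGC-1 had 5 higher and 7 lower estimates in Mrps12ha/ha against Mrps12+/+ (median -0.01), and the 10 targets of NRF1 and GABP 5 and 5. Alas1, the first enzyme of haem synthesis and a target of both NRF1 and PGC-1α, had 23107.3, 48455.1 and 75158.1 normalized counts in Mrps12+/+, 32741.2, 24138.7 and 14295.4 in Mrps12ep/ep and 23540.9, 27777.1 and 19087.4 in Mrps12ha/ha livers. Among the 17 coregulators 1 was higher and 3 lower at an unadjusted p under 0.05 in Mrps12ha/ha, beside 14.1% of all genes. Mef2d had 2346.6, 2209.2 and 2293.4 in Mrps12+/+, 2011.6, 2010.0 and 1855.4 in Mrps12ep/ep and 1796.9, 1498.8 and 1664.6 in Mrps12ha/ha livers, 3 levels without overlap. Pprc1 had 936.8, 903.2 and 1219.6 in Mrps12+/+ and 630.7, 640.9 and 747.6 in Mrps12ha/ha livers. It was below the Mrps12+/+ mice in all Mrps12ha/ha livers, as in the hearts (log2 fold change -0.59 ± 0.14 in liver, adjusted p = 0.134, and -0.41 ± 0.14 in heart, adjusted p = 0.213).

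Of the 11 related receptors, 10 had higher estimates in Mrps12ha/ha than in Mrps12+/+ livers (median 0.10). Pparg, the adipogenic isotype that rises in fatty liver, had 510.7, 1061.7 and 1447.1 normalized counts in Mrps12+/+, 437.4, 466.9 and 392.8 in Mrps12ep/ep and 552.2, 490.7 and 628.0 in Mrps12ha/ha livers. The Mrps12ep/ep livers lay below the Mrps12+/+ livers (log2 fold change -1.10 ± 0.32, adjusted p = 0.41). Rara, a retinoic acid receptor that also pairs with RXRα, had 951.5, 1146.6 and 1216.4 in Mrps12+/+ and 1735.0, 1730.9 and 1501.4 in Mrps12ha/ha livers. Of the 12 clock genes 4 were higher and 0 lower at an unadjusted p under 0.05 in Mrps12ha/ha against Mrps12+/+ livers, beside 14.1% of all genes. Dbp had 2392.7, 4431.3 and 4525.6 in Mrps12+/+, 2652.1, 4342.3 and 5812.7 in Mrps12ep/ep and 6925.9, 9149.4 and 7898.8 in Mrps12ha/ha livers, so that Dbp stood above Mrps12+/+ in all Mrps12ha/ha samples of both tissues. Mrps12+/+ mouse 3, lowest in Ppargc1b, was also the lowest liver in Arntl, at 83.2.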

How the data were processed

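RNA of hearts and livers from 9 mice per tissue was measured. The authors trimmed reads with Trim Galore 0.4.1 and cutadapt 1.18, quantified them with Salmon 1.1.0 on GENCODE vM21 (GRCm38.p6) in a strand-aware mode, summed transcripts to genes and deposited counts normalized by DESeq2 per tissue without mitochondrial transcripts, rounded to 1 decimal. Each deposited column is 1 mouse and tissue and was taken as its 3 technical libraries pooled, since the labels number 3 mice per group, although the study's methods speak of pooling independent replicates. The deposited tables of the authors' own comparisons hold fold changes and p-values and were not used. The members and gene lists were chosen with earlier results of these data known.

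Low values were whole multiples of 1 step in 100.0% of the values checked (up to 1000 reads, within 0.06 normalized counts), which gave the depth. The test was limma 3.58.1 in R 4.3.3 (lmFit, eBayes with trend) on log2 of the normalized count plus 1, with all 3 genotypes of a tissue together, for genes with a mean of at least 10. p-values were adjusted by Benjamini-Hochberg over all tested genes, with a threshold of 0.05. Unless an alternative is named, p-values in the text are from this fit. Exact permutation tests took all splits of 6 mice. Levels per kb used merged exon lengths of vM21. The fit was tested on simulated counts. Named genes are the 10 members and, from each list and comparison, up to 3 genes with the largest change among those past the threshold, or where none passed, with the smallest p. Tables and motifs were handled in Python with pandas and scipy. Alternatives were the pseudocount, the filter, quantile normalization, the genotypes in the fit, array weights, a replicate block, leaving out each mouse and, added after seeing the data, limma-voom on recovered reads.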

Additional observations from a re-analysis of the deposited data

How the results depend on the processing

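With all mice and equal weights no member was called in any of the 6 comparisons. Array weights called 5 members in Mrps12ha/ha against Mrps12+/+ hearts and 5 against Mrps12ep/ep hearts, and leaving out each mouse called 0 to 4 and 0 to 3. In the livers leaving out each mouse called 0 to 1 in Mrps12ep/ep against Mrps12+/+. The other 3 comparisons had no member called under any alternative that was run. Of 900 recomputed log2 fold changes, 848 kept their direction and their side of the threshold, 18 crossed it in the same direction and 34, of 18 member comparisons, changed sign, all of values that were not called. Under array weights Esrra moved to -0.01 in Mrps12ha/ha hearts, and Esrrg to 0.13, Ppara to 0.24 and Ppard to -0.01 in Mrps12ep/ep hearts, each against Mrps12+/+. Quantile normalization moved Rxra to -0.07 in Mrps12ha/ha livers. Without single mice, Mrps12ha/ha over Mrps12+/+ ran from -0.03 to 0.08 for Esrra in the heart and in the liver from -0.08 to 0.5 for Esrrg, -0.05 to 0.27 for Ppara and -0.08 to 0.11 for Rxra. Mrps12ep/ep over Mrps12+/+ in the heart ran from -0.23 to 0.05 for Esrrg, -0.33 to 0.25 for Ppara, -0.06 to 0.07 for Ppard, -0.03 to 0.07 for Nrf1, -0.08 to 0.08 for Gabpa and -0.36 to 0.06 for Perm1, and in the liver from -0.02 to 0.52 for Ppargc1a and -0.11 to 0.19 for Gabpa. Mrps12ha/ha over Mrps12ep/ep in the heart ran from -0.68 to 0.15 for Ppargc1a, -0.38 to 0.14 for Ppargc1b, -0.44 to 0.06 for Perm1 and -0.18 to 0.06 for Rxra, and in the liver from -0.16 to 0.05 for Ppard and -0.27 to 0.02 for Gabpa. The cause was not tested.

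With the replicate block 0 members were called in each comparison. In no comparison did every same-numbered pair of deviations from the genotype means correlate above 0.1. In Mrps12ep/ep against Mrps12+/+ hearts mice 1, 2 and 3 gave 0.58, 0.41 and -0.07. With 3 mice a group this check cannot decide whether the numbers pair the mice, and the main fit used no pairing. The edgeR and DESeq2 fits that had been planned were not run, and limma-voom on the recovered reads, added after seeing the data, was run in their place and called 0 members in each comparison. Liver Perm1 rests on as few as 2 reads in a mouse.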
